A study of Mus musculus with 34 samples.

Results

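Ligand activation of PPARγ was measured in immortalized brown preadipocytes that expressed wild-type (WT) histone H3.3 together with ectopic PPARγ, by comparing the RNA-Seq library of cells given rosiglitazone (Rosi) with that of cells given the solvent DMSO. Each gene was represented by 1 RefSeq transcript, and the 11753 genes of 23109 with an RPKM (reads scaled to transcript length and library size) of at least 1 in either library were kept. The 2 libraries are among 34 samples of a series that otherwise covers adipogenesis of cells with WT or K36M mutant histone H3.3, knockdown of *Nsd2*, and ChIP-Seq. The mutant carries methionine in place of lysine 36 and served in the study to deplete methylation of that residue. Both groups of cells described here came from the same line, preadipocytes of C57BL/6J interscapular brown fat immortalized with SV40T, infected first with a retrovirus for FLAG-tagged WT H3.3 and then with one for PPARγ. The labels describe that line as carrying a floxed glucocorticoid receptor gene and receiving a control or a Cre retrovirus, without saying which one these libraries received, and the study's methods describe WT cells. The receptor's gene, *Nr3c1*, was detected in both libraries, at 10.5 RPKM with DMSO and 21.3 RPKM with Rosi. The DMSO library is labelled as time 0 and the Rosi library as 24 h, whereas the methods give the same duration of treatment for both. If the labels hold, the ligand and a day of further culture cannot be told apart.

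PPARγ is the nuclear receptor that drives fat cell differentiation. It binds DNA as a heterodimer with a retinoid X receptor (RXR), and rosiglitazone, a thiazolidinedione, occupies its ligand pocket and exchanges corepressors for coactivators. Its known targets store, transport, and break down lipid, and brown preadipocytes are precursors that acquire lipid droplets and abundant mitochondria when they differentiate.

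Each condition was 1 library, so no difference described here has a replicate check. The DMSO library held 21749427 mapped reads and the Rosi library 16543065. In these libraries 3 reads on a transcript of 1 kb correspond to 0.138 and 0.181 RPKM. Counting intervals (95%, exact Clopper-Pearson) are given on the log2 ratio of Rosi to DMSO, cover counting error only, and compare the 2 libraries rather than the treatments. Where a gene is followed by a pair of RPKM values, the first is with DMSO and the second with Rosi. In bulk RNA, fewer cells expressing a gene and less RNA of it per cell cannot be told apart.

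Most kept genes differed little, with a median of 0.057 and quartiles of -0.32 and 0.47 for the ratio of Rosi to DMSO on the log2 scale. A ratio over 2-fold was the threshold for a call. By it 1171 genes, 9.96% of those kept, were up and 594, 5.05%, were down. The counts of list members given below are to be read beside these shares. Of the up genes 385, and of the down genes 181, were under 1 RPKM in the lower library. These passed the filter only through the library where they were higher, and the list counts share this limit. With RPKM of at least 1 required in both libraries, 786 genes were up and 413 down. Among the up genes 351 were over 4-fold, 142 over 8-fold, and 69 over 16-fold higher with Rosi, against 125, 36, and 25 genes that were lower by the same factors. The up genes made up 2.81% of the summed RPKM of the kept genes in the DMSO library and 11.2% in the Rosi library. For the down genes these shares were 11.4% and 4.599%. The counting interval of the ratio excluded no change for 1124 of the up genes and for 553 of the down genes. At the edges of these choices, *Mef2a* at 5.62 and 11.2 RPKM with DMSO and Rosi was just called up, *Pcbp4* at 59.97 and 29.99 RPKM was just not called down, *Shroom1* at 1.003 and 0.604 RPKM was just kept, and *Fsd1* at 0.9995 and 0.4496 RPKM was just left out.

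**Figure D1:**
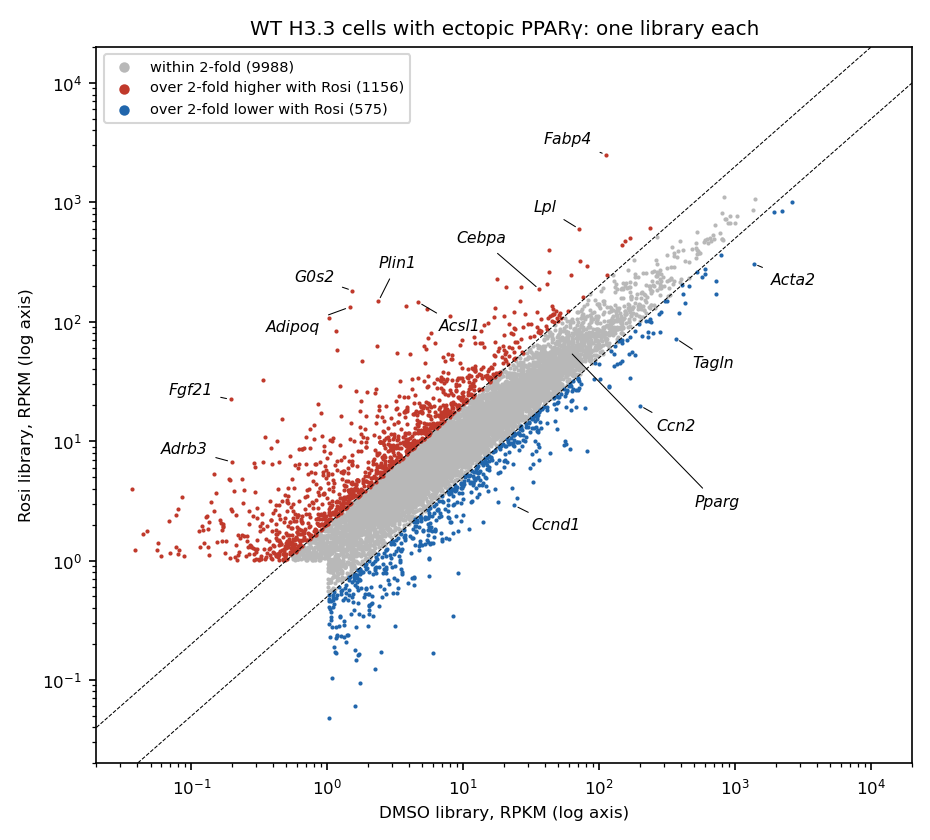
RPKM of each kept gene in the DMSO library (x axis) and in the Rosi library (y axis) of WT H3.3 cells with ectopic PPARγ, both on log axes, with 2-fold lines dashed. The 34 kept genes at 0 in 1 library are not drawn. Red points lie up to 119-fold above equality (*G0s2*), whereas named blue points reach 10.1-fold below it (*Ccn2*), and *Pparg* lies between the lines.

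Transcripts of the receptor were nearly level between the libraries, with *Pparg* at 60.2 RPKM with DMSO and 56.8 RPKM with Rosi (log2 ratio -0.084, interval -0.18 to 0.0078). Reads from the retroviral coding sequence and from the endogenous gene were not separated in these values. Mesenchymal markers expressed in both libraries included *Prrx1* at 30.1 and 32.5 RPKM, *Twist2* at 64.3 and 77.3 RPKM, and the progenitor antigen *Ly6a* at 83.3 and 79.4 RPKM. These were nearly level, but of 18 kept preadipocyte and progenitor markers 14 had a ratio under 1 (median log2 ratio -0.32). Over 2-fold, 3 of the 18 were down, *Thy1* among them, and 1 was up. Most markers of other lineages were low, with exceptions. Of 9 macrophage markers in the files 7 were under 1 RPKM in both libraries, and their summed level was 3.96 RPKM with DMSO and 1.92 RPKM with Rosi. The same was true of 9 of 10 endothelial markers, the exception being *Egfl7* at 5.096 and 6.65 RPKM, and of 10 of 10 epithelial markers. It held for 6 of 10 osteochondrogenic markers. The others were *Alpl*, alkaline phosphatase, at 21.1 and 15.95 RPKM, the bone factor gene *Runx2* at 6.88 and 7.33 RPKM, *Sox9* at 7.75 and 2.33 RPKM, and *Col2a1* at 10.9 and 1.85 RPKM, and their part in the results was not tested.

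The 20 genes with the largest increase among those at 10 RPKM or more with Rosi ranged from 18.97-fold to 119-fold, and many encode proteins of lipid storage. The largest ratio belonged to *G0s2*, which encodes an inhibitor of adipose triglyceride lipase and was at 1.53 RPKM with DMSO and 182 RPKM with Rosi (log2 ratio 6.9003, 6.37 to 7.49). The hormone gene *Fgf21* went from 0.194 to 22.3 RPKM, a ratio that rests on 4 reads in the DMSO library and has an interval of 5.48 to 8.73. *Adh1*, an alcohol and retinol dehydrogenase, was at 1.03 and 108 RPKM, and *Lgals12*, the lipid droplet-associated galectin-12, at 0.334 and 32.2 RPKM. *Fabp4*, the fatty acid carrier of adipocytes, had by far the highest level of the 20, 112 RPKM with DMSO and 2505 RPKM with Rosi (22.3-fold). The others outside the lipid pathways included *Cdo1*, cysteine dioxygenase (49.9-fold), *Car3*, carbonic anhydrase 3 (27.3-fold), *Mest*, an imprinted gene linked to fat mass expansion (32.98-fold), *Sort1*, the sorting receptor sortilin (24.1-fold), and *Mt2*, a metallothionein (23.5-fold). The lower bounds of the 20 counting intervals lay between 3.81 (*Mt2*) and 6.37 (*G0s2*) on the log2 scale.

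**Figure D2:**
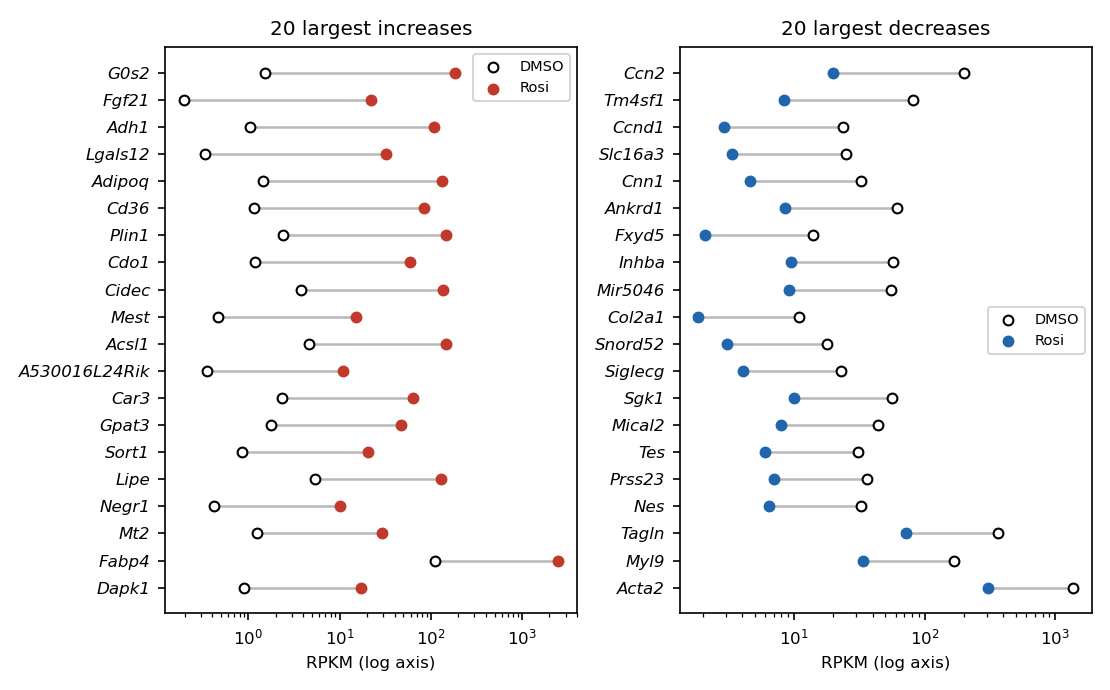
RPKM in the DMSO library (open points) and in the Rosi library (filled points) on a log axis, for the 20 genes with the largest increase among those at 10 RPKM or more with Rosi (left) and the 20 with the largest decrease among those at 10 RPKM or more with DMSO (right). *Fabp4* ends highest on the left at 2505 RPKM, whereas *Fgf21*, *Lgals12*, *Mest*, *A530016L24Rik*, *Sort1*, *Negr1*, and *Dapk1* start under 1 RPKM, and *Acta2* starts highest on the right at 1372 RPKM.

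Genes for taking up fatty acids were unevenly changed. Of 16 kept members of the uptake and binding list 6 were up and 1 was down over 2-fold (median log2 ratio 0.52). *Cd36*, the fatty acid translocase, was at 1.15 RPKM with DMSO and 83.7 RPKM with Rosi, and *Acsl1*, which activates fatty acids to acyl-CoA, was at 4.66 and 146 RPKM. Of the acyl-CoA synthetases only *Acsl1* among those listed was called, since *Acsl3* (0.29), *Acsl4* (0.43), and *Acsl5* (-0.56) had log2 ratios within 2-fold. The fatty acid transport proteins *Slc27a1*, *Slc27a3*, and *Slc27a4* were likewise within 2-fold, with log2 ratios of 0.72, 0.296, and 0.19. *Mfsd2a*, a transporter of lysolipids, was the member that was lower, at 1.15 and 0.169 RPKM.

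Each enzymatic step of triglyceride synthesis had at least 1 gene that was up, and at every step but the last other members of the family were not. The list had 9 of 14 kept members up and 1 down, with a median log2 ratio of 2.06. Of the glycerol-3-phosphate acyltransferases, *Gpat3* was at 1.79 and 46.9 RPKM with DMSO and Rosi (26.2-fold) and *Gpam* at 5.61 and 20.4 RPKM, whereas *Gpat4* was at 26.6 and 23.01 RPKM. Of the next family, *Agpat2* was at 16.8 and 109 RPKM, and *Agpat1* and *Agpat3* had log2 ratios of -0.203 and 0.35. Among the lipins, the phosphatidate phosphatases, *Lpin1* was 7.92-fold higher, *Lpin2* had a log2 ratio of -0.29, and *Lpin3* was 3.496-fold lower, from 3.16 to 0.905 RPKM. Both acyltransferases of the last step were up, *Dgat1* from 13.5 to 83.3 RPKM and *Dgat2* from 6.74 to 32.4 RPKM. Genes that supply glycerol were up as well, *Gpd1* 13.3-fold, the glycerol channel gene *Aqp7* 10.3-fold, and glycerol kinase, *Gk*, 2.5997-fold. *Pck1*, the glyceroneogenic enzyme, stayed under 1 RPKM in both libraries at 0.0352 and 0.6701 RPKM.

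Among lipid droplet proteins 9 of 15 kept members were up and 0 down (median 1.4998). *Plin1*, the perilipin of adipocyte droplets, was at 2.37 and 148 RPKM and *Cidec*, which fuses droplets, at 3.78 and 136 RPKM. The more widely expressed perilipin gene *Plin2* was already at 72.8 RPKM with DMSO and reached 322 RPKM, *Plin4* was at 42.5 and 259.6 RPKM, and *Plin3* differed little (21.6 and 26.01 RPKM). *Cidea*, the member typical of brown fat, gave 0.0395 and 0.0519 RPKM, at or under the level of 3 reads.

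Lipolysis genes were up together with the genes of storage. Of 12 kept members 11 were up, none was down, and the median log2 ratio was 2.22. The 3 lipases that act in turn on triglyceride were all higher, *Pnpla2* (adipose triglyceride lipase) from 7.92 to 111 RPKM, *Lipe* (hormone-sensitive lipase) from 5.38 to 128 RPKM, and *Mgll* (monoglyceride lipase) from 0.338 to 6.67 RPKM. *Abhd5*, the coactivator of *Pnpla2*'s product, was 3.02-fold higher. Brakes on lipolysis were higher too, *G0s2* as above and the antilipolytic niacin receptor gene *Hcar2* (0.0472 and 1.77 RPKM). Among β-adrenergic receptor genes, *Adrb1* went from 1.05 to 2.81 RPKM beside the larger ratio of *Adrb3* (log2 5.09). Downstream of these receptors, the regulatory subunit gene *Prkar2b* was 4.33-fold higher and the catalytic subunit gene *Prkaca* was at 47.001 and 48.6 RPKM.

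Genes of fatty acid oxidation were mostly higher, by modest ratios. Up genes numbered 24 of 34, none was down, 33 had a ratio above 1, and the median log2 ratio was 1.13. The mitochondrial carnitine shuttle was represented by *Cpt1a* (17.4 and 37.1 RPKM), *Cpt2* (13.1 and 26.98 RPKM), and *Crat* (8.86 and 26.1 RPKM). The chain-length acyl-CoA dehydrogenases *Acadvl*, *Acadl*, and *Acadm* were 2.17-, 2.29-, and 2.47-fold higher, and *Acads* had a log2 ratio of 0.62. Both subunits of the trifunctional protein stayed within 2-fold, *Hadha* at 0.82 and *Hadhb* at 0.75 on the log2 scale. Peroxisomal genes were among the larger ratios. The thiolase gene *Acaa1b* went from 9.504 to 45.2 RPKM. *Pex11a*, for peroxisome division, went from 3.82 to 18.4 RPKM, and *Abcd2*, a peroxisomal importer, from 0.124 to 1.397 RPKM. *Acot1* and *Acot2* are near copies of each other and their reads may be split, so the 6.55-fold ratio of *Acot2* is uncertain. *Pdk4*, often read as a PPAR target, was at 8.68 and 7.91 RPKM (log2 -0.13, -0.31 to 0.041).

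In the list for de novo lipogenesis and desaturation 5 of 17 kept genes were up and 1 down (median log2 ratio 0.39). Fatty acid synthase, *Fasn*, was at 57.6 RPKM with DMSO and 57.7 RPKM with Rosi, and ATP citrate lyase, *Acly*, at 69.6 and 65.01 RPKM. *Pcx*, pyruvate carboxylase, had the largest ratio of the list, 26.4 and 197 RPKM, and the transcription factor gene *Srebf1* was at 29.8 and 95.2 RPKM. *Elovl6*, an elongase, was the lower member at 7.38 and 2.72 RPKM. The cholesterol list had a median log2 ratio of 0.0013, 4 of 29 kept members were up (13.8%, beside 9.96% of all kept genes), and none was down. Those called were the efflux transporter genes *Abca1* (1.62 and 26.5 RPKM) and *Abcg1* (1.17 and 5.74 RPKM), joined by *Nr1h3*, which encodes the oxysterol receptor LXRα (4.47 and 17.8 RPKM). The fourth was *Insig1*, a feedback inhibitor (11.8 and 40.3 RPKM).

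Genes of secreted adipocyte products formed the fat cell list with the highest median log2 ratio, 2.34, with 14 of 21 kept members up and 2 down. *Adipoq*, the adiponectin gene (NCBIM37 chr16:23146609-23158101), was at 1.46 RPKM with DMSO and 132 RPKM with Rosi. *Retn*, for resistin, had no read with DMSO and 66 reads (6.86 RPKM) with Rosi, at least 28.9-fold higher when 3 reads stand for the zero. The haptoglobin gene, *Hp*, went from 6.22 to 65.8 RPKM. *Angptl4*, whose product inhibits lipoprotein lipase, was already at 42.7 RPKM with DMSO and was at 399.7 RPKM with Rosi. The retinol carrier gene *Rbp4* went from 0.791 to 13.8 RPKM. Other products of mature fat cells were not over 2-fold higher, since *Cfd*, for adipsin, was at 2.34 and 3.41 RPKM (log2 interval -0.057 to 1.14) and the leptin gene, *Lep*, was at 0.0282 and 0 RPKM.

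**Figure D3:**
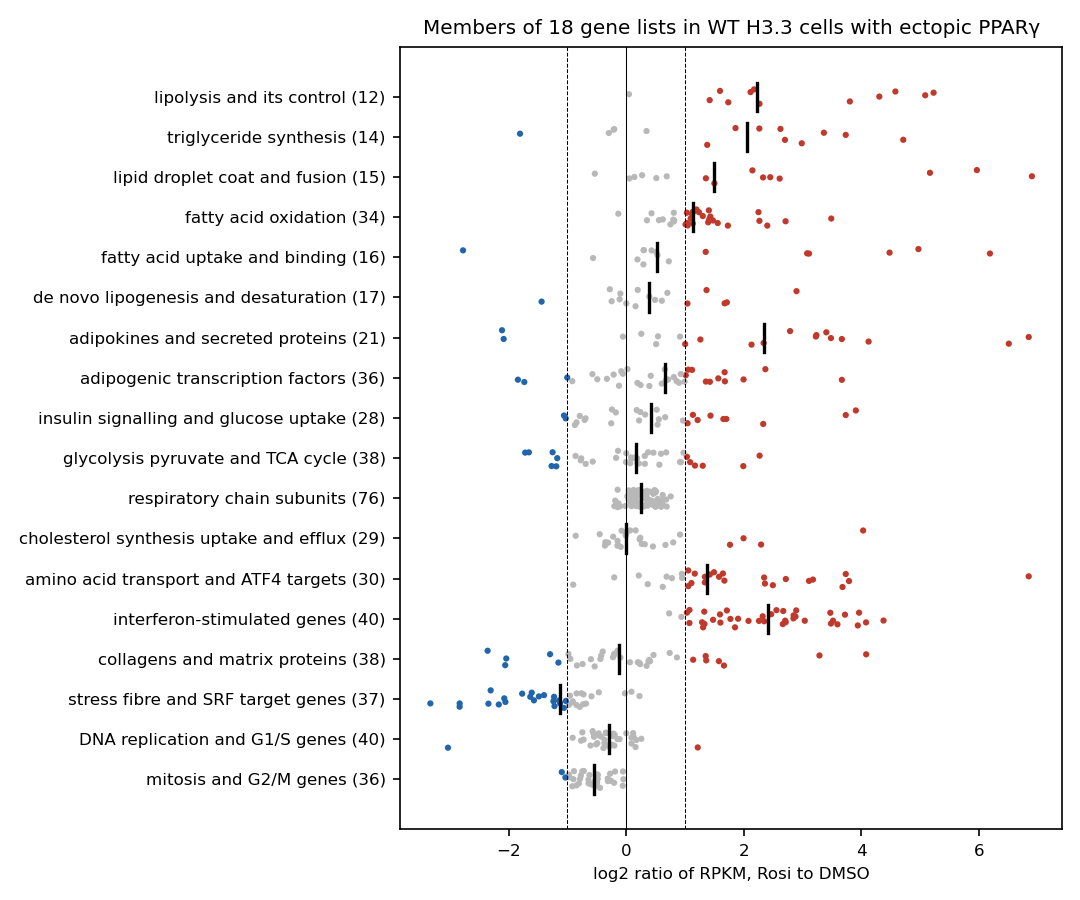
Log2 ratio of RPKM, Rosi to DMSO, for the kept members of 18 gene lists (numbers of kept members in brackets). Each point is a gene, red when over 2-fold up, blue when over 2-fold down, and grey otherwise, the black bar is the list's median, dashed lines mark 2-fold, and *Retn*, at 0 with DMSO, is not drawn. Medians run from -1.12 for stress fibre genes to 2.41 for interferon-stimulated genes.

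Transcription factors of adipogenesis changed in both directions, 11 of 36 up and 3 down. Beside *Cebpa* (log2 2.37), *Klf15*, a factor of late differentiation and gluconeogenic genes, was at 0.241 and 3.06 RPKM, and *Zfp423*, a preadipocyte commitment factor, at 3.96 and 11.7 RPKM. *Cebpb*, which acts early, was at 51.9 and 108 RPKM, close to the threshold. Lower members were *Sox9* (7.75 and 2.33 RPKM) and *Gata2* (10.3 and 5.14 RPKM), both known to restrain differentiation of preadipocytes, and *Foxc2* (12.96 and 3.62 RPKM). Of the receptors and coregulators, 5 of 26 were up and none was down. *Ppargc1b*, a coactivator of mitochondrial genes, was at 0.3899 and 6.43 RPKM, whereas *Ppargc1a* stayed under 1 RPKM. The p160 coactivator gene *Ncoa1* was at 2.93 and 15.5 RPKM beside *Ncoa2* at 4.36 and 7.85 RPKM and *Ncoa3* at 4.24 and 4.599 RPKM, and *Nrip1*, for the corepressor RIP140, was at 3.73 and 15.8 RPKM. The heterodimer partner gene *Rxra* was at 26.2 and 31.1 RPKM.

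In insulin signalling 9 of 28 kept genes were up and 2 down. The insulin receptor gene, *Insr*, was at 3.32 and 10.4 RPKM and *Pik3r1*, the regulatory subunit of PI3K, at 7.48 and 16.4 RPKM. *Akt1* was lower, at 129.7 and 62.3 RPKM, and *Akt2* was at 11.4 and 13.5 RPKM. The basal glucose transporter gene *Slc2a1* was at 40.2 and 23.2 RPKM.

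Within carbon metabolism, the genes that were lower belonged to glycolysis. In the list of glycolysis, pyruvate, and TCA cycle genes 6 of 38 were up and 6 down. The down genes included *Ldha*, which makes lactate (387 and 118 RPKM), *Eno1* (141 and 44.8 RPKM), *Pgam1* (276 and 116 RPKM), and *Pkm* (457 and 201 RPKM). The list also counts *Gapdh* as down, but its listed level of 3.098 and 1.37 RPKM is far under that of its neighbours in the pathway, and reads of genes with near-identical copies in the genome are uncertain here. *Slc16a3*, the lactate exporter and one of the 20 largest decreases, was at 24.9 and 3.34 RPKM. The genes that were up handle pyruvate and isocitrate, such as *Mpc2*, a subunit of the mitochondrial pyruvate carrier (17.1 and 68.1 RPKM), *Idh1* (13.8 and 66.5 RPKM), and *Idh3a* (37.1 and 83.5 RPKM). Subunits of the respiratory chain were all within 2-fold, 68 of 76 above a ratio of 1, with log2 ratios from -0.201 to 0.76 and a median of 0.26. Of 27 thermogenic genes of brown fat only 9 reached 1 RPKM. *Ucp1*, the uncoupling protein that defines brown fat, had no read in either library, and the potassium channel gene *Kcnk3* was at 1.77 and 21.9 RPKM.

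Letters of the PPAR element were rare in promoters. Promoter windows of RefSeq (GRCm38.p6), from 250 bases before to 50 bases after a start site, were searched on both strands. The PPAR and RXR element DR1, read as AGGNCA given 2 times with any 1 base between, was found for 4 of 853 up genes with a window (0.469%), for 0.277% of the 9024 kept genes with one, and for 0.451% of all 27025 RefSeq genes, and 4 matches are too few to compare these shares. It was not found in the windows searched of the lists for droplets (14 of 15 kept genes had a window), triglyceride synthesis (10 of 14), lipolysis (8 of 12), or fatty acid oxidation (26 of 34). The C/EBP letters TTGCNNAA were found for 12.8% of up genes, 10.6% of down genes, 9.49% of kept genes called neither way, and 12.2% of all RefSeq genes. These windows leave out distal elements, and letters are not sites of binding.

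A list of amino acid transport genes and known targets of ATF4, the transcription factor of the integrated stress response, was up broadly as well. Of 30 kept members 21 were up, none was down, and the median log2 ratio was 1.38. *Atf4* itself was at 115 and 247 RPKM with DMSO and Rosi. Stress effectors had larger ratios. *Chac1*, which degrades glutathione, was at 5.83 and 80.6 RPKM. *Trib3*, a pseudokinase that binds AKT, was at 5.54 and 73.7 RPKM. The transcription factors downstream of ATF4 were *Atf3* at 1.26 and 16.1 RPKM, and *Ddit3*, for CHOP, at 23.8 and 121 RPKM. Transporter genes that were up included *Slc1a5*, for glutamine (26.3 and 148 RPKM), *Slc7a11*, for cystine (0.817 and 5.37 RPKM), and both chains of the leucine exchanger, *Slc7a5* (2.53-fold) and *Slc3a2* (2.53-fold). Serine synthesis was weaker, with *Phgdh* at 0.21, *Psat1* at 0.37, and *Psph* at 1.49 on the log2 scale. The letters TGATGNAA, chosen after these values were seen as part of the known amino acid response element, were found on either strand in 8 of 26 list promoters (30.8%) beside 2.65% of those of kept genes and 4.51% of all. They can share bases with the C/EBP letters. The list includes known ATF4 targets, so its high share of these letters comes with its membership and says nothing about Rosi. The 8 genes with a match had a median log2 ratio of 3.39 and the 18 without had 1.08. The letters were chosen with these ratios known and the groups are small, so no conclusion is drawn from this split. Windows are shown for the 4 called members with the largest ratios whose match, with its printed flanks, lay wholly upstream of the start. *Trib3* has a match but not in such a position. The search itself fixed most letters of the shared core. The windows are given 5′ to 3′ on the strand of the gene with the match in capitals (it reads as given above on the opposite strand). They lie at chr7:45615607-45615644 on the minus strand (*Fgf21*), chr2:119351034-119351071 on the plus strand (*Chac1*), chr1:191183421-191183458 on the minus strand (*Atf3*), and chr19:27216805-27216842 on the plus strand (*Vldlr*) of GRCm38.p6.
*Fgf21*: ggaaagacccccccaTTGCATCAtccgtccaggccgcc
*Chac1*: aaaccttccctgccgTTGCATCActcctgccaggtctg
*Atf3*: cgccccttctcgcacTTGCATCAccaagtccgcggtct
*Vldlr*: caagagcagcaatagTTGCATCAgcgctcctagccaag

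Interferon-stimulated genes were up almost throughout. Of 40 kept members 38 were over 2-fold up, the other two, *Ccl5* and *Ifih1*, had log2 ratios of 0.94 and 0.73, and the list's median of 2.41 was the highest of all lists. *Rsad2*, for the antiviral enzyme viperin, was at 0.437 and 6.71 RPKM. Other effectors with large ratios were *Ifit3* (5.32 and 58.97 RPKM) and *Ifit1* (9.85 and 70.9 RPKM), whose products bind viral RNA, and the GTPase genes *Iigp1* (0.751 and 12.7 RPKM) and *Gbp2* (2.38 and 19.5 RPKM). *Isg15*, a ubiquitin-like modifier, was at 20.1 and 111 RPKM, and the chemokine gene *Cxcl10* at 14.3 and 93.03 RPKM. The factors that transmit the signal were up too, *Stat2* 4.23-fold, *Irf9* 3.28-fold, and *Irf7* 4.79-fold. Cytosolic RNA sensor genes had smaller ratios, *Ddx58* at 3.42-fold and *Ifih1* at 1.66-fold. Members of the *Gbp*, *Ifit*, *Oas*, and *Ifi* families have close paralogs, so reads may be shared between them. Summed over the list, the level was 301 RPKM with DMSO and 1250.1 RPKM with Rosi. Within the adipogenesis experiments, whose levels may not be on the same footing, it ranged from 94.7 RPKM in *Nsd2* knockdown cells at D0 and 114 RPKM in WT H3.3 cells at D2 to 2092 RPKM in WT H3.3 cells at D0 and 4222 RPKM in K36M cells at D7. The part of ligand, time, or culture in the difference was not tested.

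The letters GAAA given 2 times with any 2 bases between, part of the interferon-stimulated response element and likewise chosen after the values were seen, occurred on either strand in 16 of 27 promoter windows of the interferon list (59.3%), 7.86% of those of up genes, 3.602% of those of kept genes, and 3.99% of all. The list was drawn up from genes known to respond to interferon, so its high share comes with its membership and says nothing about Rosi. Genes with a match had a median log2 ratio of 2.57 (16 genes) and those without 1.602 (11 genes). With the letters chosen after these ratios were known and few genes on each side, nothing is concluded from the split. Matches, in capitals below, all read on the opposite strand. The 4 called members with the largest ratios whose match, with its flanks, lay wholly upstream of the start are shown 5′ to 3′ on the strand of the gene. They lie at chr12:26456548-26456587 on the minus strand (*Rsad2*), chr3:142559984-142560023 on the plus strand (*Gbp3*), chr19:34583358-34583397 on the plus strand (*Ifit3*), and chr3:142620589-142620628 on the plus strand (*Gbp2*) of GRCm38.p6, and in *Gbp3* overlapping matches join into a longer run.
*Rsad2*: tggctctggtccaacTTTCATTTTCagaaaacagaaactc
*Gbp3*: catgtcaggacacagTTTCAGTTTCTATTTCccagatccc
*Ifit3*: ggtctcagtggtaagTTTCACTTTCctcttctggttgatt
*Gbp2*: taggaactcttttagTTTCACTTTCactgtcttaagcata

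The genes lower with Rosi were led by those of contractile stress fibres. Of 37 kept members of the list for stress fibres and targets of serum response factor (SRF), 21 were down, none was up, 35 had a ratio under 1, and the median log2 ratio was -1.12. Their summed level was 10565 RPKM with DMSO and 4210.2 RPKM with Rosi. *Ccn2*, the matricellular growth factor CTGF, had the largest decrease of all genes at 10 RPKM or more with DMSO, 199 and 19.8 RPKM (10.1-fold, log2 interval -3.44 to -3.23). Smooth muscle-type genes were abundant with DMSO and lower with Rosi. *Acta2*, for α-smooth muscle actin, was at 1372 and 306 RPKM. *Tagln*, for the actin-bundling protein transgelin, was at 367 and 72.3 RPKM. *Myl9*, a regulatory myosin light chain, was at 167 and 33.9 RPKM, and *Cnn1*, for calponin, at 32.5 and 4.56 RPKM. Cytoplasmic actin, *Actb*, was at 2223 and 844 RPKM, and focal adhesion genes included *Zyx* at 228 and 81.6 RPKM and *Vcl* at 56.8 and 55.97 RPKM. The mechanosensitive gene *Ankrd1* was 7.12-fold lower, whereas *Ccn1*, a relative of *Ccn2*, had a log2 ratio of -0.79 and *Amotl2* one of 0.23. *Srf* was at 41.1 and 25.6 RPKM and its coactivator gene *Mrtfa* at 36.2 and 17.4 RPKM. Of 10 markers of striated muscle 8 were under 1 RPKM in both libraries, and the others were the actin genes *Acta1* at 31.3 and 26.3 RPKM and *Actc1* at 1.89 and 0.522 RPKM.

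The CArG box (CC and GG around a run of A and T), the known SRF element and the third motif chosen after the values were seen, was found in 7 of 31 promoter windows of this list (22.6%), in 4.91% of those of all down genes, in 1.62% of those of kept genes, and in 1.81% of all genes. The list includes known SRF targets, so its high share comes with its membership and says nothing about Rosi. List members with a match had a median log2 ratio of -1.24 (7 genes) and those without -0.97 (24 genes). No conclusion is drawn from this split either, since the box was chosen with the ratios known and few genes match. Boxes are in capitals below. The 4 called members with the largest decreases whose box, with its flanks, lay wholly upstream of the start are shown 5′ to 3′ on the strand of the gene. They lie at chr2:156775288-156775327 on the plus strand (*Myl9*), chrX:56779566-56779605 on the plus strand (*Fhl1*), chr10:79988529-79988568 on the plus strand (*Cnn2*), and chr1:43163968-43164007 on the minus strand (*Fhl2*) of GRCm38.p6, where *Fhl1* and *Fhl2* encode LIM proteins that were 4.15- and 2.36-fold lower.
*Myl9*: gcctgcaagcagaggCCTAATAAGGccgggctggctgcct
*Fhl1*: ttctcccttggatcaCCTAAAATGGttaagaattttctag
*Cnn2*: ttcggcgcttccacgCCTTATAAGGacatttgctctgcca
*Fhl2*: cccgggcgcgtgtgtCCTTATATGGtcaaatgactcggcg

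The remaining large decreases fell in no single group. *Ccnd1*, for cyclin D1, was at 23.7 and 2.898 RPKM, *Tm4sf1*, a surface protein of migrating cells, at 81.2 and 8.33 RPKM, and *Sgk1*, a kinase downstream of PI3K, at 55.998 and 10.1 RPKM. *Mical2*, an oxidase that depolymerizes nuclear actin, was at 43.6 and 7.93 RPKM, *Tes*, a focal adhesion protein, at 31.1 and 5.94 RPKM, and the progenitor filament gene *Nes* at 32.6 and 6.38 RPKM. *Col2a1*, the collagen of cartilage, was at 10.9 and 1.85 RPKM. *Mir5046* and *Snord52* are short noncoding RNA genes with 71 and 23 reads with DMSO, and the interval of *Snord52* ran from -4.92 to -0.82.

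Matrix genes were remodelled in both directions. Of 38 collagen and matrix genes 7 were up and 5 down. Those that were up belong mostly to the pericellular matrix and basement membrane, *Col15a1* (3.24 and 54.9 RPKM), *Lama4*, the laminin chain around fat cells (0.608 and 5.94 RPKM), *Lamc1* (42.3 and 108 RPKM), *Col6a1* (238 and 612 RPKM), and *Col6a2* (169 and 505 RPKM). Those that were down included the matricellular gene *Thbs1* (416 and 169.7 RPKM) and the network collagen gene *Col8a1* (9.09 and 1.77 RPKM). Among proteases and their inhibitors 7 of 18 were down and 2 up, the former including the urokinase gene *Plau* (14.8 and 4.23 RPKM), its receptor gene *Plaur* (26.1 and 11.2 RPKM), *Timp1* (119 and 28.8 RPKM), and *Timp3* (48.9 and 12.6 RPKM). In the TGF-β and BMP list 6 of 28 were down and 1 up. Down members were the activin subunit gene *Inhba* (57.3 and 9.45 RPKM), *Tgfb3* (8.49 and 2.96 RPKM), the latency protein gene *Ltbp1* (37.1 and 12.8 RPKM), and the feedback inhibitor gene *Smad7* (15.9 and 7.2004 RPKM), and *Tgfbr3*, for betaglycan, was up (8.902 and 30.4 RPKM).

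Cell cycle genes shifted slightly and together rather than past the threshold. All 36 kept mitosis and G2/M genes had a ratio under 1, with log2 ratios between -1.095 and -0.047 and a median of -0.55. Down over 2-fold were 2 of them (5.56%, beside 5.05% of all kept genes). Of 40 replication and G1/S genes 31 had a ratio under 1 (median -0.296), and *Ccnd1* was the one that was down. Among inhibitors of the cycle and p53 targets 5 of 21 were up and none was down, with *Gadd45a*, a stress-induced growth arrest gene, at 5.11 and 63.02 RPKM, *Cdkn1c*, for p57, at 7.58 and 32.9 RPKM, and *Rb1*, for the retinoblastoma protein, at 2.55 and 9.74 RPKM. The immediate early list was split, with 11 of 22 ratios above 1 and 11 under it, 4 up such as *Spry4* (2.92 and 8.78 RPKM) and 5 down such as *Ier3* (35.2 and 9.48 RPKM). Of 18 preadipocyte markers 3 were down, namely *Dlk1*, for Pref-1 (9.55 and 4.4998 RPKM), *Osr1* (14.8 and 6.67 RPKM), and *Thy1* (8.43 and 3.45 RPKM).

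Smaller groups of genes held single large changes. Of 29 kept xenobiotic and oxidative stress genes 10 were up and 2 down. *Ephx2*, the soluble epoxide hydrolase of lipid epoxides, was at 5.54 and 35.1 RPKM, and *Txnip*, the thioredoxin-binding protein that restrains glucose uptake, at 15.1 and 98.2 RPKM. *Sod2*, the mitochondrial superoxide dismutase, was 2.09-fold higher. Retinoid genes were 4 of 9 up and none down, with the retinol saturase gene *Retsat*, whose product promotes adipogenesis, at 11.6 and 30.2 RPKM. Clock genes were 4 of 16 up and none down, among them *Per3* (2.42 and 7.9 RPKM) and *Nfil3* (11.1 and 28.7 RPKM). In the NF-κB and inflammatory list 6 of 29 were up and 3 down. Acute phase genes were on the higher side, *Saa3* at 5.195 and 44.9 RPKM and *C3*, complement component 3, at 1.505 and 14.2 RPKM. *Ptgs2*, the inducible cyclooxygenase, was at 19.97 and 6.77 RPKM, and the macrophage growth factor gene *Csf1* at 285 and 121 RPKM.

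Receptor and ligand genes of other pathways were mixed, beside 9.96% up and 5.05% down over all kept genes. The Wnt list had 4 of 20 up and 3 down, with the receptor gene *Fzd4* at 0.948 and 9.104 RPKM and its relative *Fzd2* at 22.4 and 10.7 RPKM. Of angiogenic factors and their receptors 5 of 21 were up and 3 down. *Vegfb*, the vascular factor linked to mitochondrial genes, was at 27.4 and 54.9 RPKM, whereas *Vegfa* was at 52.1 and 62.3 RPKM. Of integrins and adhesion genes 3 of 22 were up and 3 down (13.6% each). Members included the fibronectin receptor chain *Itga5* at 99.3 and 44.1 RPKM, the laminin receptor chain *Itga6* at 0.5795 and 2.46 RPKM, and the hyaluronan receptor gene *Cd44* at 47.03 and 14.7 RPKM. The list that separates white from brown fat cells did not lean one way, since 4 of 12 kept members were up and 2 down, among them *Retn*, a white marker, and *Slc36a2*, a transporter of beige and brown fat cells (0.303 and 2.74 RPKM).

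The same 11753 genes were set beside the Rosi response of K36M cells with ectopic PPARγ, which used separate libraries of DMSO and Rosi. In K36M cells 7.09% of these genes with a ratio were up and 8.41% down over 2-fold. Of the 1171 up genes of WT cells 471 were up and 33 down in K36M cells, and of the 594 down genes 333 were down and 4 up. The median log2 ratio of the up genes, which WT values had chosen, was 1.495 in WT and 0.78 in K36M cells, and that of the down genes was -1.37 and -1.13. With 1 library per condition a difference between the responses could not be tested, so the values are given side by side.

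Lists differed in how the 2 kinds of cells compared. Triglyceride synthesis had a median log2 ratio of 2.06 in WT and 0.36 in K36M cells, and lipolysis 2.22 and 1.04. *Lpin1* was at 4.18 and 33.1 RPKM in WT cells and 4.21 and 5.22 RPKM in K36M cells, and *Agpat2* at 16.8 and 109 RPKM against 17.1 and 23.1 RPKM. *Adipoq* reached 5.64 RPKM and *Plin1* 12.1 RPKM with Rosi in K36M cells. Other lipid genes had ratios of similar or larger size in K36M cells, *G0s2* from 0.292 to 38.9 RPKM, *Gpat3* from 2.31 to 50.5 RPKM, *Angptl4* from 56.5 to 611 RPKM, and *Plin2* from 105 to 742 RPKM. Cholesterol genes, near a ratio of 1 in WT cells, had a median of -1.05 in K36M cells, where 15 of 29 were down, and the ratio was below that of WT cells for 29 of 29. *Fasn*, of the lipogenic list, was at 62.7 and 20.6 RPKM in K36M cells.

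Amino acid and ATF4 genes had the opposite order. Their median was 1.38 in WT and 1.799 in K36M cells, in which 26 of 30 were up. The ratio in K36M cells was below that in WT cells for 5 of the 30. *Fgf21* reached 212 RPKM and *Atf3* 62.5 RPKM with Rosi in K36M cells, against 22.3 and 16.1 RPKM in WT cells. Interferon-stimulated genes were up in both, 24 of 40 in K36M cells (median 1.26), with a smaller ratio than in WT cells for 39 of 40. Stress fibre genes were down in both, 17 of 37 in K36M cells (median -0.92). Their ratio in K36M cells was below that in WT cells for 6 of the 37 genes. Counts of genes with a lower ratio in K36M cells were not made over all kept genes. The median over all kept genes was 0.057 in WT and -0.04 in K36M cells.

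**Figure D4:**
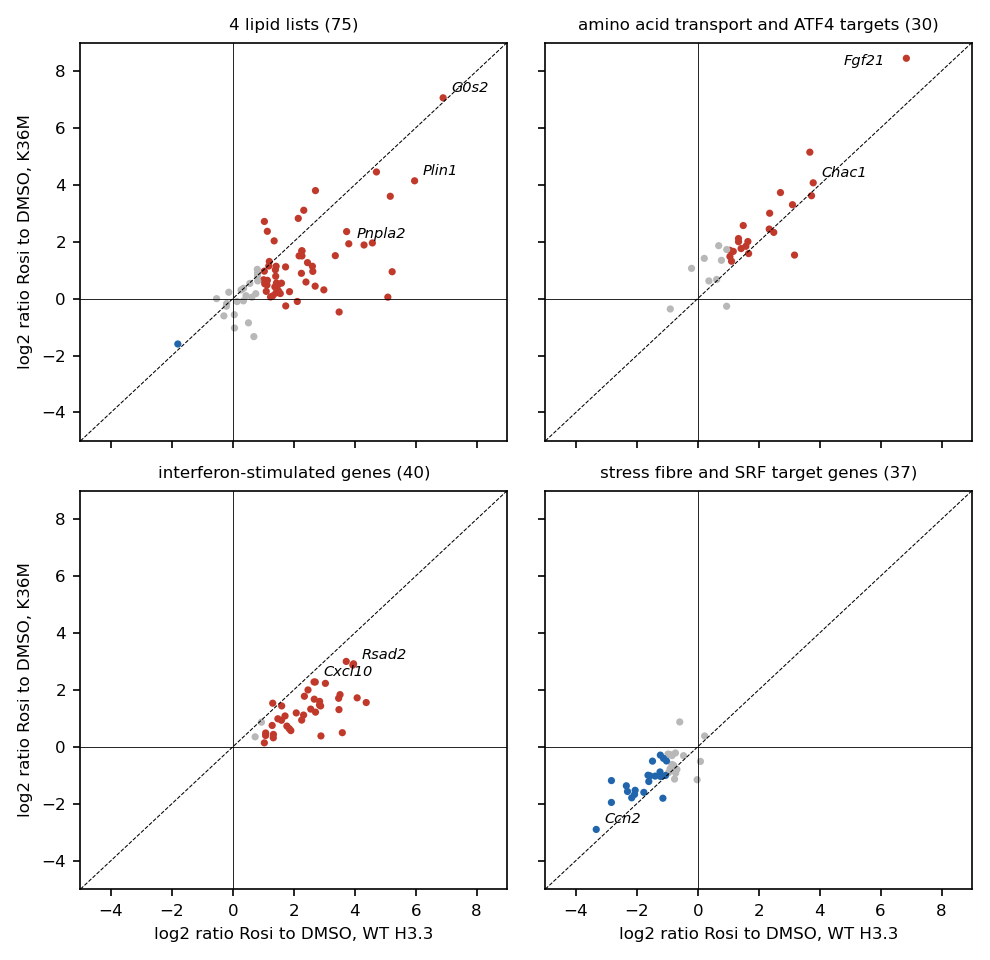
Log2 ratio of RPKM, Rosi to DMSO, in WT H3.3 cells (x axis) and in K36M cells (y axis), both with ectopic PPARγ, for the kept members of 4 lipid lists (droplets, triglyceride synthesis, lipolysis, and oxidation) and of 3 other lists. Each point is a gene, coloured by its call in WT cells (red up, blue down, grey neither), and the dashed line marks equal ratios. Points of the interferon list lie below the line for 39 of 40 genes, and those of the ATF4 list for 5 of 30.

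A further comparison set the Rosi response beside the first days of adipogenesis without ectopic PPARγ, WT H3.3 cells at D2 against D0, where 8.82% of the kept genes with a ratio were up and 16.4% down. Per the study's methods, adipogenesis was induced from D0 to D2 with insulin, the hormone T3, isobutylmethylxanthine, dexamethasone, and indomethacin. Rosi was given to sub-confluent preadipocytes. The contrasts thus differ in more than ectopic PPARγ and its ligand, and the part of each was not tested. Of the up genes with Rosi 416 were up and 246 down at D2, and of the down genes 380 were down and 24 up. The lipid lists were higher at D2, with medians of 1.56 for droplets, 2.51 for triglyceride synthesis, 2.58 for lipolysis, and 1.204 for oxidation, and the stress fibre list was lower at D2 as well (-2.05). Lipogenesis (1.29) and cholesterol genes (0.85), whose medians with Rosi were 0.39 and 0.0013, and the respiratory chain (1.05) were higher at D2. Interferon-stimulated genes went the other way, with 39 of 40 down at D2 (median -5.38). *Ifit1* for example was at 174 RPKM at D0 and 0.933 RPKM at D2, and *Isg15* at 181 and 4.43 RPKM. Levels set side by side across the adipogenesis and ectopic PPARγ experiments are a description only, since some genes with near-identical copies differed widely between them, such as *Actg1* at 13.3 RPKM in WT cells at D0 and 1929 RPKM in WT cells with ectopic PPARγ and DMSO.

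**Figure D5:**
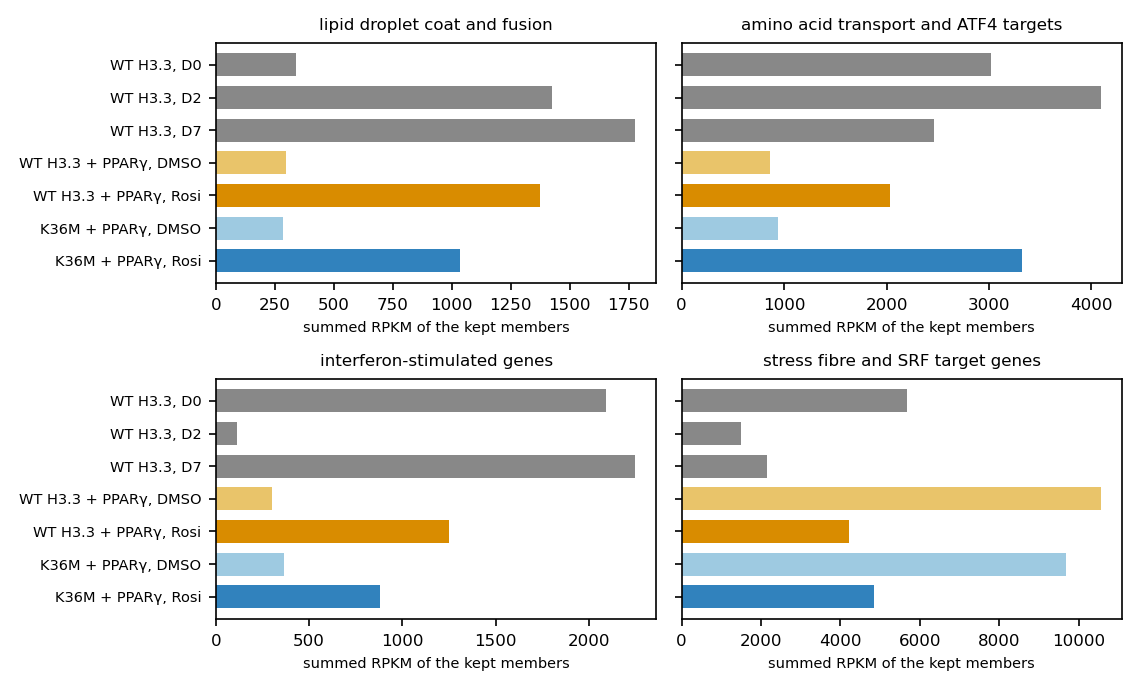
Summed RPKM of the kept members of 4 gene lists in 7 libraries, with WT H3.3 cells at D0, D2, and D7 of adipogenesis in grey, WT H3.3 cells with ectopic PPARγ in yellow and orange, and K36M cells with ectopic PPARγ in blue. Each bar is 1 library, and the axes start at 0. The interferon list is at 2092 RPKM at D0, 114 RPKM at D2, and 2249.7 RPKM at D7, and the droplet list goes from 298 RPKM with DMSO to 1372 RPKM with Rosi in WT cells.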

How the data were processed

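RNA-Seq values were the RPKM per RefSeq transcript that the authors deposited, 1 table per library, made after base calling with CASAVA 1.8.2 and with mouse build mm9 per the labels, whereas the aligner and counter are not given in the sources used here. The tables hold no counts. Whole reads were recovered from the steps of the RPKM values for 26946 of 26946 transcripts above 0 in at least 2 of 14 libraries (tolerance 0.0001 reads), which gave the library totals and the exact 95% Clopper-Pearson intervals. Of transcripts above 0 in 1 library 590 of 1275 could be solved. For each gene 1 transcript was used, that whose RPKM averaged highest across the 14 libraries, and genes at RPKM 1 or more in either library of the contrast were kept. Ratios used no pseudocount, and a call is a ratio over 2-fold. With 1 library per condition no test was run. For a gene at 0 in 1 library, 3 reads stood for the zero. Named genes were the 20 largest increases among genes at RPKM 10 or more with Rosi, the 20 largest decreases among those at RPKM 10 or more with DMSO, genes the study names for this experiment, and members of gene lists. *Mef2a*, *Pcbp4*, *Shroom1*, *Fsd1*, and *Actg1* were named for their values. Some list members are counted but not reported here by name. The contrast, the lists, and the alternative settings were chosen with earlier results of these data known, and 3 of the promoter motifs after the values had been seen. Gene positions are those of NCBIM37, promoter sequences are from RefSeq (GRCm38.p6), and no coordinates were converted. Scripts for recovering reads and computing intervals were first tested on simulated data. Python 3.11.15, numpy 2.4.6, pandas 2.3.3, scipy 1.17.1, numba 0.67.0, and matplotlib 3.10.9 were used.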

Additional observations from a re-analysis of the deposited data

Results flagged for a closer look

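Of 315 listed or named genes over 2-fold in WT cells, 27 had the opposite sign in K36M cells, and 3 of these were over 2-fold the other way with both counting intervals excluding no change. Among all called genes, 963 of 1171 up genes and 553 of 594 down genes kept their sign in K36M cells. Over 2-fold the other way, without the interval rule, were 33 (2.82%) of the up genes and 4 (0.67%) of the down genes. *Gas6*, a secreted ligand of TAM receptors, was at 11.97 and 26.8 RPKM with DMSO and Rosi in WT cells (log2 ratio 1.16) and at 29.5 and 8.38 RPKM in K36M cells (log2 ratio -1.82). *Tbc1d4*, which regulates movement of the glucose transporter GLUT4, was at 1.54 and 3.57 RPKM in WT cells (log2 ratio 1.215) and at 1.03 and 0.309 RPKM in K36M cells (log2 ratio -1.73). *Zfp467*, a zinc finger factor that promotes adipogenesis, was at 0.324 and 1.04 RPKM in WT cells (log2 ratio 1.68) and at 1.72 and 0.556 RPKM in K36M cells (log2 ratio -1.63). The difference was not tested, since each value is 1 library.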

How the results depend on the processing

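The numbers of genes called changed by over 1.5 times under 4 alternatives. With genes above RPKM 0 in either library 3326 were up and 3167 down, so that 51.2% of calls were up in place of 66.35%, and with RPKM of at least 5 in either library 684 were up and 359 down. A pseudocount of 1 gave 731 up and 360 down, and requiring the whole counting interval to lie beyond 2-fold gave 724 and 306. The median log2 ratio over the genes kept was -4.9e-05 with RPKM of at least 5 in either library and 0.039 with RPKM of at least 1 in both. The other alternatives (a pseudocount of 0.1, rescaling by the median ratio, another choice of transcript, an interval that excludes no change, RPKM of at least 1 in both, and leaving out transcripts under 200 bases, the last chosen after seeing the data) left the counts within 1.5 times. Rescaling by the median ratio of 1.04-fold gave 61.5% of calls up. Of 222 list counts under the alternatives 193 stayed within 1.5 times and 29 did not, 14 with a pseudocount of 1, 14 with the filter at RPKM 5, and 1 with rescaling. The ratios of 48 named genes kept their sign in 96 of 96 recomputed values, but this was nearly fixed in advance. A pseudocount of 1 cannot reverse a ratio, and rescaling by 1.04-fold could reverse only a ratio nearer to 1 than that. No paired analysis was possible because each condition had 1 library, which also left no replicate to leave out. Depth limits genes with few reads, so ratios under 1 RPKM in the lower library are imprecise.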
